A study of Mus musculus with 5 samples.

Results

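The 36 genes described here encode proteins of synaptic vesicles and of dense-core granules, the organelles from which neurons and neuroendocrine cells release transmitters and peptides. They were listed by name and by function, with earlier results of these data known: 5 granins, 5 proteins of prohormone processing, 6 SNAREs and proteins that take SNARE complexes apart, 5 complexins and synaptotagmins, 5 docking and priming proteins, 7 vesicle membrane proteins and synapsins, and 3 proteins of vesicle recovery. All 36 were among the 54838 genes listed, 34 were above 0 in at least 2 libraries, and 33 passed the filter on low reads and were tested together with 14897 genes in all. Total RNA depleted of ribosomal RNA was sequenced from N2a cells, a mouse neuroblastoma line, that had received either a control siRNA (group siCtrl, n = 2) or one directed at Ewsr1 (group siEwsr1, n = 3). Both groups received 2 lipid transfections starting from 50000 cells and were collected 24 hours after the last one, at an siRNA concentration that the labels give as 100 µM, with no untransfected group. The labels do not say whether the libraries of a group came from separate cultures, so p-values here cover the variation among the libraries only, and that variation may be technical.

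As background, a synaptic vesicle fuses when the SNARE proteins of vesicle and plasma membrane zip together, a step held ready by complexins and triggered by calcium through synaptotagmins. Dense-core granules use much of the same machinery, but are filled in the secretory pathway with granins and prohormones, which convertases and carboxypeptidase E cut inside the granule. Sympathetic neurons and the tumours derived from their lineage carry both kinds of organelle.

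Counted reads numbered 15766280 and 17314511 in the siCtrl libraries, and 15045774, 21339459 and 17475740 with siEwsr1. Levels are in RPKM, reads scaled to exonic length and to the reads counted in the library, after the decimal points lost from the deposited values were restored. Differences are log2 fold changes of siEwsr1 against siCtrl with their standard error (SE), and adjusted p-values are from limma with Benjamini-Hochberg adjustment over all 14897 genes, called under 0.05. Ewsr1 itself stood at 71.7 and 72.3 RPKM in siCtrl and at 35.7, 36.3 and 37.6 RPKM in siEwsr1 (log2 fold change -0.96, SE 0.07, adjusted p = 0.0192 by limma). It dropped out of the fit limited to genes with the lowest possible decimal position and an annotated length, described below. Its levels thus rest on a higher decimal position or on a solved length. The sympathetic lineage markers Hand2, Dbh and Isl1 were present. Of the 8 pan-neuronal markers, Tubb3, Elavl4, Stmn2, Elavl3 and Map2 averaged 348.9, 32.9, 22.0, 5.32 and 4.32 RPKM in siCtrl, and Rbfox3, Nefl and Nefm were at 0.0208 RPKM or less on average in each group. Mitochondrial ribosomal RNA took 1.55% and 0.799% of reads in siCtrl and 1.66%, 2.42% and 1.67% in siEwsr1, and its part in the results was not tested.

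Among the vesicle and granule genes, the complexin gene Cplx2 was called, with about the same fall as Ewsr1 itself, and no gene was called higher. The most abundant member, the granin gene Chgb, was above both siCtrl libraries in all 3 siEwsr1 libraries without passing the test, as was the SNARE-recycling gene Napb. Of the 33 tested genes, 1 was called lower and 0 higher by limma, where 1.75% of all tested genes were called, 0.98% lower and 0.765% higher. At an unadjusted p under 0.05, 4 of the 33 were higher (12.1%) and 4 lower (12.1%), near the 9.77% and 10.4% of all tested genes. The median log2 fold change of the 33 was 0.02, against -0.01 over all tested genes, with 18 above 0 and 15 below. This median turned to -0.026 without siCtrl replicate 2 and to -0.044 over the 25 genes with the lowest decimal position and an annotated length. A log2 fold change beyond 0.3 in either direction was found in 8 of the 33 genes (24.2%), a share below the 31.9% of all tested genes. The RPKM values of the groups did not overlap in 14 of the 33 genes, 7 higher and 7 lower in siEwsr1 (42.4%), close to the 39.9% of all tested genes. In a bulk sample, a lower level in every cell and fewer cells with the gene cannot be told apart.

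**Figure D1:**
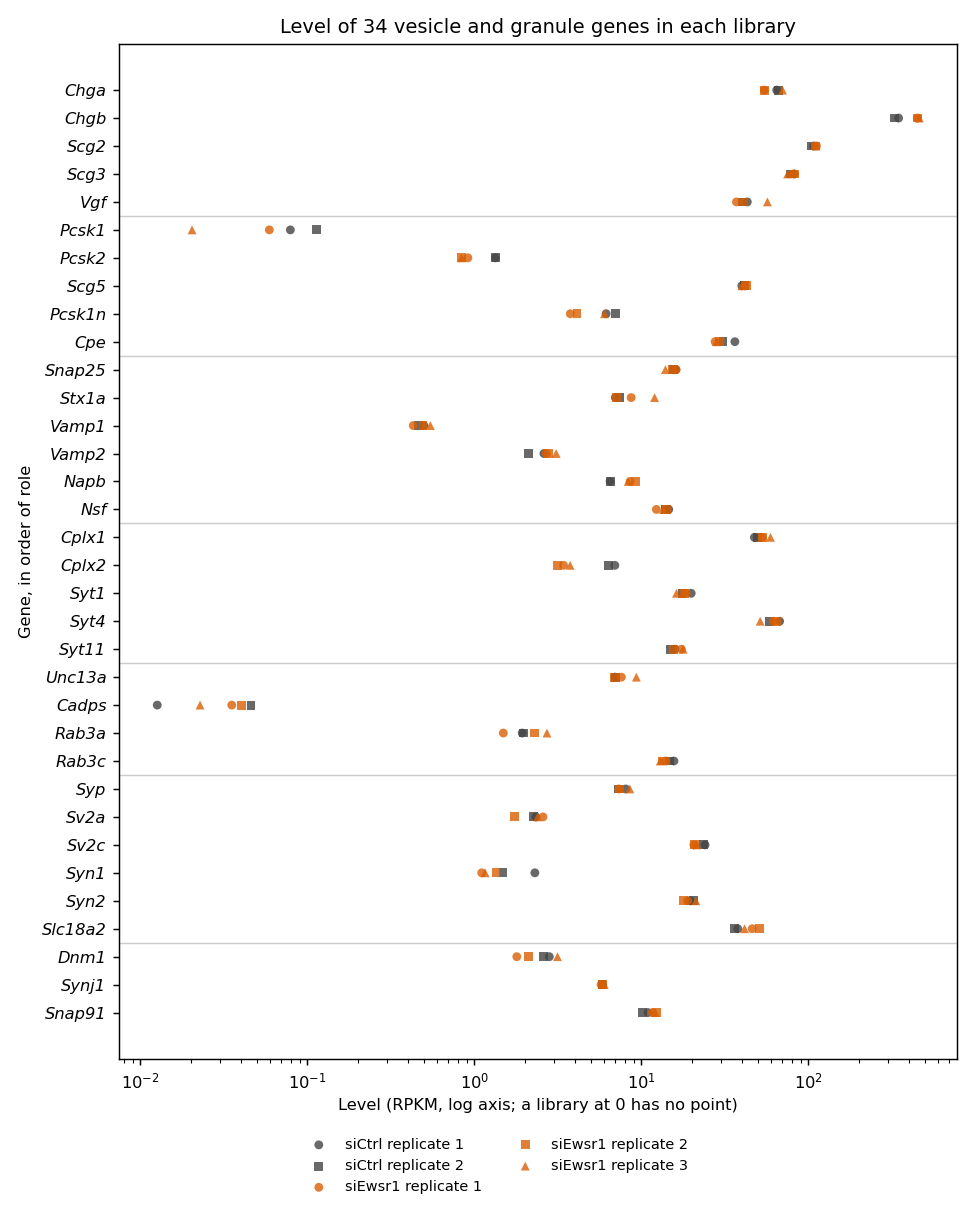
Level of the 34 genes above 0 in at least 2 libraries, in RPKM on a log axis, with a point per library (grey: siCtrl, orange: siEwsr1) and lines between the functional groups. Levels run from Chgb, at 328.3 to 462.8 RPKM, down to Cadps, at 0.0126 to 0.0460 RPKM, and for most genes the 5 points lie close together, with Cplx2 and Napb among those whose groups stand apart.

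Together the 36 genes took 0.374% to 0.420% of the reads, namely 0.392% and 0.374% in siCtrl against 0.408%, 0.411% and 0.420% in siEwsr1. Their summed level was 1073 and 1026 RPKM in siCtrl and 1154, 1164 and 1195 RPKM in siEwsr1. Chgb alone made up 32.4% and 32.0% of that sum in siCtrl and 39.1%, 38.6% and 38.7% in siEwsr1. Most of the difference in the sum was thus that of a single gene.

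Granins are acidic proteins that condense in the Golgi and help to form the granule core. Chgb, the chromogranin B gene (ENSMUSG00000027350, chromosome 2, 132781278 to 132795079, plus strand, GENCODE M21 on GRCm38), was at 347.7 and 328.3 RPKM in siCtrl and at 451.7, 449.0 and 462.8 RPKM in siEwsr1. The 3 siEwsr1 libraries lay closer to each other than the siCtrl libraries did, and all above them. Its log2 fold change was 0.44 (SE 0.08, 95% interval 0.25 to 0.64), with adjusted p = 0.0574 (limma). This call depends on how the variance is modelled: with a variance trend on the number of reads in place of the level, adjusted p was 0.0141, and with limma's voom weights 0.00996, both chosen after seeing the data. Those fits called more genes in all, 5.28% and 5.53% of the same 14897, and Cplx2, Chgb and Napb were the members called in each.

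The other granins were nearer to level. Scg2, the secretogranin II gene, was at 107.9 and 103.9 RPKM in siCtrl and at 111.97, 110.3 and 111.5 RPKM in siEwsr1 (log2 fold change 0.09, 95% interval -0.10 to 0.27). Chga, the chromogranin A gene, was at 64.7 and 66.7 RPKM in siCtrl and at 54.6, 55.0 and 70.2 RPKM in siEwsr1, so that replicates 1 and 2 lay below the siCtrl libraries and replicate 3 above them. Vgf, which encodes the precursor of several secreted peptides, also stood apart in replicate 3: 43.2 and 40.4 RPKM in siCtrl, 37.2 and 41.3 RPKM in siEwsr1 replicates 1 and 2, and 57.0 RPKM in siEwsr1 replicate 3. That last value is inferred, with its decimal point 1 position above the lowest that gave whole reads. Scg3, whose product tethers granins to the granule membrane, was at 75.3 to 82.9 RPKM in all 5 libraries. The order of the mean levels, Chgb, Scg2, Scg3, Chga and Vgf, was the same in both groups.

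**Figure D2:**
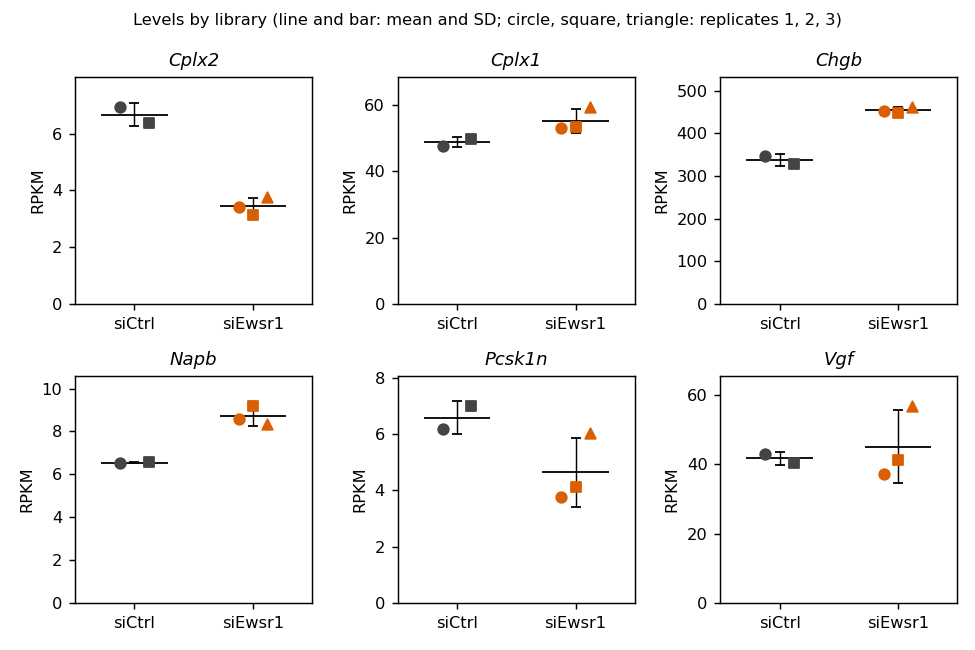
RPKM of 6 genes by library, on axes that start at 0, with lines and bars for mean and SD (siCtrl n = 2, siEwsr1 n = 3). Cplx2 falls from 6.66 to 3.44 RPKM on average while Cplx1 does not, Chgb and Napb are higher in each siEwsr1 library, and in Pcsk1n and Vgf the triangle, siEwsr1 replicate 3, lies apart from the other siEwsr1 libraries.

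Of the prohormone processing genes, 3 of the 4 tested were lower in every siEwsr1 library than in both siCtrl libraries, as were 21.3% of all tested genes, and none was called. Pcsk2, the gene of prohormone convertase 2, was at 1.34 and 1.34 RPKM in siCtrl and at 0.916, 0.835 and 0.839 RPKM in siEwsr1. The groups did not overlap, and the log2 fold change was -0.56 (SE 0.18, 95% interval -0.99 to -0.14, adjusted p = 0.155, limma). Pcsk1n encodes proSAAS, an inhibitor of prohormone convertase 1, and was at 6.16 and 7.01 RPKM in siCtrl and at 3.76, 4.12 and 6.03 RPKM in siEwsr1. Replicate 3 of siEwsr1 came close to the siCtrl libraries, and the log2 fold change was -0.51 (SE 0.20, adjusted p = 0.215, limma). Without siEwsr1 replicate 3 the value was -0.70 (adjusted p = 0.0212, limma).

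Cpe, the carboxypeptidase that trims the cut peptides, was at 36.4 and 30.9 RPKM in siCtrl and at 27.7, 29.4 and 28.2 RPKM in siEwsr1 (log2 fold change -0.22, SE 0.10, with adjusted p = 0.271 by limma). Without siCtrl replicate 1 the value was -0.087 and without siCtrl replicate 2 it was -0.35. The gap between the siCtrl libraries, 36.4 against 30.9, was larger than that between siCtrl replicate 2 and the nearest siEwsr1 library. Scg5, whose product 7B2 is a chaperone of convertase 2, was at 40.02 to 42.9 RPKM throughout (log2 fold change 0.04, 95% interval -0.16 to 0.24). Pcsk1, the gene of prohormone convertase 1, was barely detected, with 7 and 11 reads in siCtrl and 5, 0 and 2 reads in siEwsr1 (0.0792 and 0.113 RPKM against 0.0593, 0 and 0.0204 RPKM), and was not tested. Both convertases were thus low in these cells beside the granins.

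Of the 4 SNARE genes none was called. Snap25, a plasma membrane SNARE, was at 16.1 and 15.7 RPKM in siCtrl and at 16.2, 15.4 and 14.0 RPKM in siEwsr1 (log2 fold change -0.05, 95% interval -0.30 to 0.19). Its partner Stx1a, syntaxin 1A, was at 6.99 and 7.45 RPKM in siCtrl and at 8.70, 7.10 and 12.02 RPKM in siEwsr1. The groups overlapped, with siEwsr1 replicate 3 far above the rest, and the log2 fold change was 0.34 (SE 0.20, adjusted p = 0.386, limma), 0.15 without that library and 0.52 without siEwsr1 replicate 2. The Stx1a value of replicate 3 is itself inferred, as its decimal point was placed 1 position above the lowest that gave whole reads. On the vesicle side, Vamp2 was at 2.61 and 2.11 RPKM in siCtrl and at 2.70, 2.78 and 3.09 RPKM in siEwsr1 (log2 fold change 0.29, SE 0.15, with adjusted p = 0.325 by limma). The siEwsr1 values were all higher, the lowest of them by less than the gap between the siCtrl libraries, and the log2 fold change was 0.45 without siCtrl replicate 1 and 0.13 without siCtrl replicate 2. Vamp1, a second vesicle SNARE, was at 0.431 to 0.546 RPKM.

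After fusion, SNARE complexes are pulled apart by the ATPase NSF with its adaptors, the SNAP proteins, of which Napb encodes the beta form. Napb (ENSMUSG00000027438, chromosome 2, 148693985 to 148732467, minus strand) was at 6.51 and 6.55 RPKM in siCtrl and at 8.58, 9.198 and 8.35 RPKM in siEwsr1. The siCtrl libraries were nearly equal and all siEwsr1 libraries lay above them, with a log2 fold change of 0.42 (SE 0.10, 95% interval 0.19 to 0.66) and adjusted p = 0.0861 (limma). With the variance trend on reads adjusted p was 0.0359 and with voom 0.0342 (limma). Nsf itself was at 14.6 and 13.9 RPKM in siCtrl and at 12.3, 14.2 and 13.6 RPKM in siEwsr1 (log2 fold change -0.08, 95% interval -0.31 to 0.15).

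Complexins bind the assembled SNARE complex and both clamp and promote fusion. Cplx2 (ENSMUSG00000025867, chromosome 13, 54371349 to 54383917, plus strand) was at 6.95 and 6.38 RPKM in siCtrl and at 3.43, 3.15 and 3.75 RPKM in siEwsr1, from 540 and 544 reads and from 254, 331 and 323 reads. Every siEwsr1 library lay below both siCtrl libraries by more than the spread within either group. Its level fell by 0.92 on the log2 scale (SE 0.12, 95% interval -1.20 to -0.64, adjusted p = 0.0270, limma), from a mean of 6.66 ± 0.406 RPKM (SD, n = 2) to one of 3.44 ± 0.302 RPKM (SD, n = 3). The call was lost without siCtrl replicate 1 (log2 fold change -0.84, adjusted p = 0.314, limma), without siCtrl replicate 2 (-0.99, adjusted p = 0.281, limma) and without siEwsr1 replicate 1 (-0.91, adjusted p = 0.149, limma), settings in which Ewsr1 was not called either. Without any filter on low reads its adjusted p was 0.0650 (limma).

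Cplx1, the more abundant complexin gene, was at 47.6 and 49.7 RPKM in siCtrl and at 53.0, 53.3 and 59.4 RPKM in siEwsr1. It was thus slightly higher in each siEwsr1 library (log2 fold change 0.20, SE 0.08, adjusted p = 0.247, limma), while Cplx2 fell. In both groups Cplx1 stood above Cplx2 per length, at 48.7 against 6.66 RPKM on average in siCtrl and at 55.2 against 3.44 RPKM in siEwsr1. The difference between the responses of the complexin genes was not tested.

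Among the synaptotagmins, Syt1, the fast calcium sensor of release, was at 19.9 and 17.5 RPKM in siCtrl and at 18.5, 18.2 and 16.3 RPKM in siEwsr1. Syt4, found on granules and immature vesicles, was at 67.4 and 58.8 RPKM in siCtrl and at 61.9, 64.5 and 51.5 RPKM in siEwsr1, and so was the most abundant of the synaptotagmin genes listed here. Syt11, a relative that does not bind calcium, was at 15.9 and 14.9 RPKM in siCtrl and at 17.4, 15.7 and 17.8 RPKM in siEwsr1. The groups overlapped in all 3 of these genes, and their log2 fold changes ran from -0.08 to 0.15.

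**Figure D3:**
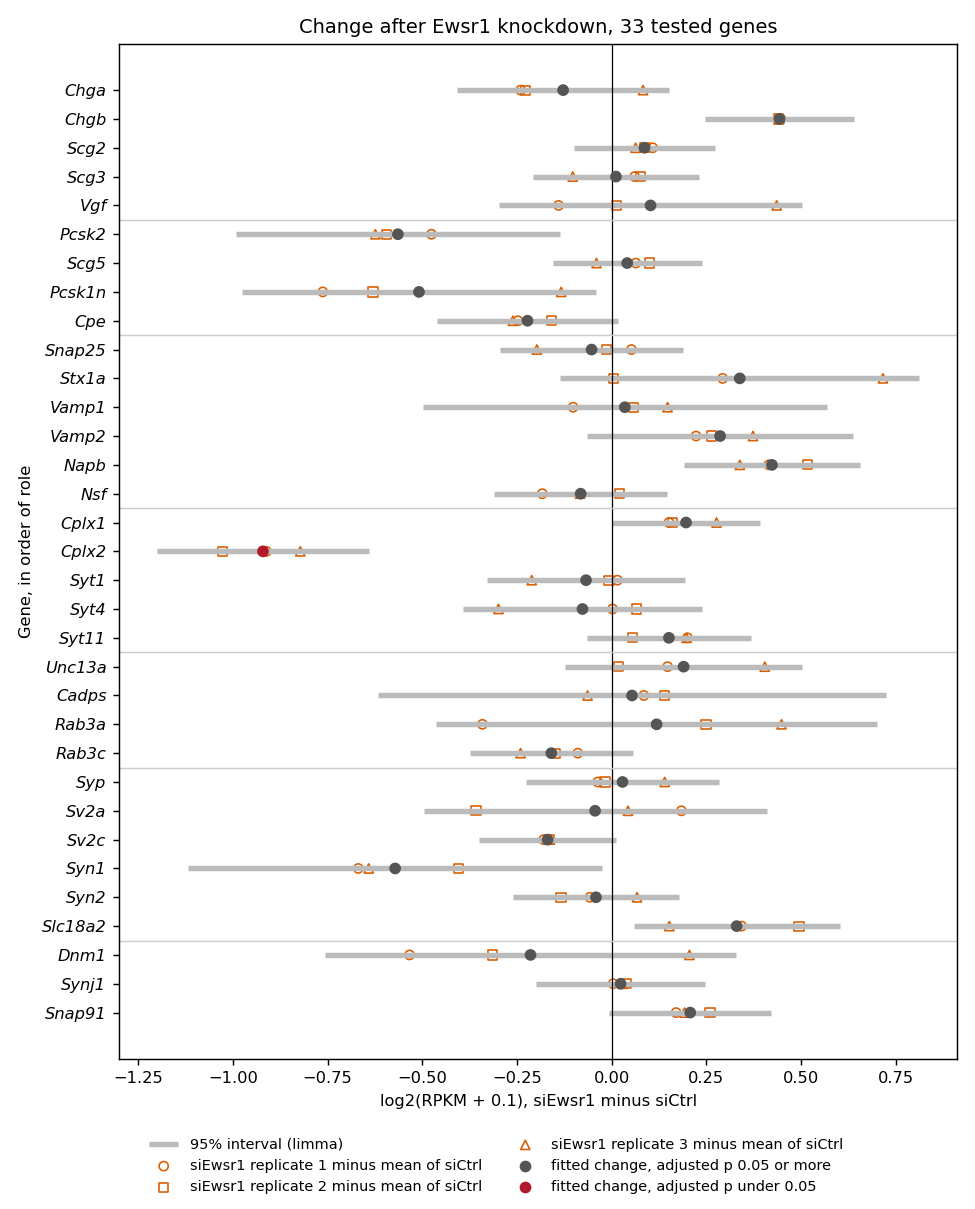
Fitted log2 fold changes of the 33 tested genes (filled points) with 95% limma intervals (grey bars) and each siEwsr1 library against the mean of siCtrl (open symbols), on the log2(RPKM + 0.1) scale and in order of role. Cplx2 at -0.92 is the one gene in red, called at an adjusted p under 0.05. Chgb and Napb lie near 0.4 with all 3 libraries to the right of 0.

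Docking and priming proteins hold vesicles at the release site. Unc13a, which encodes the priming protein Munc13-1, was at 6.97 and 7.005 RPKM in siCtrl and at 7.60, 6.93 and 9.35 RPKM in siEwsr1, again with replicate 3 highest (log2 fold change 0.19, 95% interval -0.12 to 0.50; without replicate 3 it was 0.083, and without replicate 2 it was 0.29). Rab3a, a vesicle GTPase, ranged from 1.49 to 2.72 RPKM within siEwsr1, which enclosed the siCtrl values of 1.94 and 1.97 RPKM. Rab3c, its more abundant relative here, was at 15.7 and 14.8 RPKM in siCtrl and at 14.1, 13.5 and 13.0 RPKM in siEwsr1 (log2 fold change -0.16, 95% interval -0.37 to 0.06). Cadps, the gene of the granule priming protein CAPS1, was tested on only 3 to 13 reads a library, too few to show a difference of moderate size. Rims1, an active zone scaffold, was listed at 0 in all libraries. A count of 0 allows up to 3 reads, or 0.0191 to 0.0271 RPKM in the 5 libraries, counting error only.

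Of the vesicle membrane proteins, Slc18a2 encodes VMAT2, which loads monoamines into vesicles and granules. It was at 37.8 and 36.4 RPKM in siCtrl and at 46.2, 51.2 and 41.5 RPKM in siEwsr1. The siEwsr1 libraries all lay above the siCtrl libraries but differed more among themselves than the siCtrl libraries did, and the log2 fold change was 0.33 (SE 0.11, 95% interval 0.06 to 0.60, adjusted p = 0.182, limma). Its exonic length was solved from the values, since the annotated length gave no whole reads. Slc18a3, the vesicular acetylcholine transporter gene, was listed at 0 throughout, where 3 reads would have been 0.0583 to 0.0826 RPKM.

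Synapsins coat vesicles and tie them to actin. Syn1 was at 2.31 and 1.49 RPKM in siCtrl and at 1.11, 1.35 and 1.16 RPKM in siEwsr1. The siCtrl libraries were further apart than siCtrl replicate 2 was from any siEwsr1 library, and the log2 fold change, -0.57 with SE 0.23 (adjusted p = 0.229, limma), became -0.25 without siCtrl replicate 1 (adjusted p = 0.721, limma) and -0.88 without siCtrl replicate 2 (0.411). Syn2, the more abundant synapsin gene here, was at 19.6 and 20.6 RPKM in siCtrl and at 18.96, 17.96 and 21.2 RPKM in siEwsr1. The membrane protein genes Syp (7.30 to 8.54 RPKM), Sv2a (1.74 to 2.58 RPKM) and Sv2c (20.7 to 24.1 RPKM) had log2 fold changes of 0.03, -0.04 and -0.17. Of these, Sv2c was lower in each siEwsr1 library (95% interval -0.35 to 0.01).

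Vesicle membrane is retrieved by clathrin-mediated endocytosis. Synj1, the gene of a phosphatase that aids the shedding of the clathrin coat, was the steadiest of these genes at 5.75 to 6.01 RPKM (log2 fold change 0.02, 95% interval -0.20 to 0.25). Snap91, the clathrin adaptor AP180, was at 10.97 and 10.1 RPKM in siCtrl and at 11.7, 12.4 and 12.2 RPKM in siEwsr1 (log2 fold change 0.21, SE 0.09, adjusted p = 0.257, limma). Dnm1, the neuronal dynamin that pinches vesicles off, was at 2.82 and 2.59 RPKM in siCtrl and at 1.80, 2.11 and 3.15 RPKM in siEwsr1, where replicate 3 was above siCtrl and the others below it.

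The siEwsr1 libraries did not weigh equally. Without siEwsr1 replicate 3, limma called 13.5% of 14546 genes, and among the vesicle and granule genes Chgb (adjusted p = 0.0233), Napb (0.0253) and Slc18a2 (0.0265) were called higher and Cplx2 (0.0135) and Pcsk1n (0.0212) lower. Against the mean of siCtrl, replicate 3 stood at 0.72 for Stx1a, 0.45 for Rab3a, 0.44 for Vgf and 0.40 for Unc13a on the log2 scale, whereas replicate 1 stood at 0.29, -0.34, -0.14 and 0.15. For Syt4, Syt1 and Snap25 replicate 3 stood at -0.30, -0.21 and -0.20, below the other siEwsr1 libraries. The median over all tested genes of the absolute log2 difference from the mean of siCtrl was 0.22, 0.26 and 0.20 for replicates 1, 2 and 3. Over the 33 tested vesicle and granule genes it was 0.18, 0.15 and 0.20. The part of siEwsr1 replicate 3 in the result was not tested beyond leaving it out.

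To see how far related genes moved, 6 further lists without the 36 genes were read from the same fit. None of their tested genes was called by limma: 0 of 13 for other granule proteins and peptide cargo, 0 of 24 for other SNAREs and their regulators, 0 of 12 for other synaptotagmins and C2-domain proteins, 0 of 25 for other vesicle membrane and active zone proteins, 0 of 27 for other endocytosis proteins and 0 of 11 for the RE1 repressor complex with Srrm4. Counted in that order, 1, 2, 3, 3, 1 and 2 genes were higher at an unadjusted p under 0.05, and 1, 1, 1, 2, 4 and 3 lower, against 9.77% and 10.4% of all tested genes. The medians were -0.05, 0.04, 0.07, -0.05, -0.05 and 0.003 on the log2 scale. The alpha and gamma forms next to Napb, encoded by Napa and Napg, had log2 fold changes of 0.06 and 0.30. Rest, the repressor that binds RE1 elements of many neuronal genes, averaged 6.29 RPKM in siCtrl and 5.17 in siEwsr1 (log2 fold change -0.26, adjusted p = 0.218, limma). Of the 28 granule cargo and granule protein genes, 10 were listed at 0 in all libraries, among them the neuropeptide precursor genes Gal, Penk, Sst, Tac1 and Cck.

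**Figure D4:**
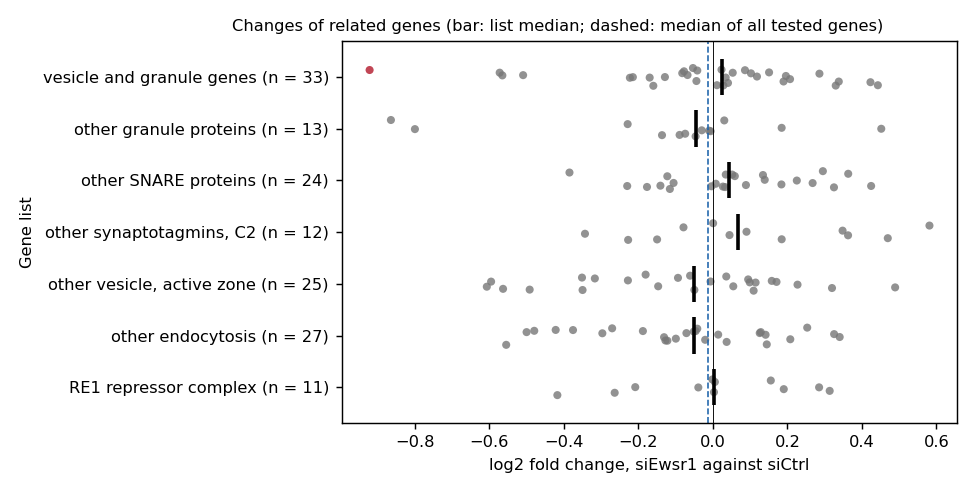
Log2 fold change of each tested gene (points, red where the adjusted p was under 0.05) in the vesicle and granule genes and in 6 related lists, with the median of each list (bar) and of all tested genes (dashed line, -0.01). The medians lie between -0.05 and 0.07, and Cplx2 is the one red point.

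Marker genes were read from the same fit. Of 10 tested markers of the sympathetic lineage, 2 were called higher, where 0.765% of all tested genes were, and none lower, among them the transcription factor gene Isl1 (8.21 to 14.6 RPKM, log2 fold change 0.83, adjusted p = 0.0319, limma). Ddc and Gata3 had log2 fold changes of -0.32 and -0.21, and of the 5 tested pan-neuronal markers none was called by limma and 1 was higher at an unadjusted p under 0.05. The summed level of the 12 listed sympathetic markers was 198.7 to 206.8 RPKM in siCtrl and 238.2 to 257.5 RPKM in siEwsr1. Of the fibroblast and mural markers, Acta2 was called lower (2.76 to 0.857 RPKM, log2 fold change -1.56, adjusted p = 0.0250, limma), Col3a1 and Lum were at 0, and the sum of the list was 36.8 to 37.1 RPKM in siCtrl and 24.7 to 31.5 RPKM in siEwsr1, most of it Fbln1. The defining markers of other cell types Sox10, S100b, Csf1r and Kdr were at 0 in all libraries. The part of these shifts in the levels of Cplx2, Chgb and Napb was not tested.

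Some promoters of these genes hold a sequence element that played no role in their choice. RefSeq gives a promoter window, 250 bases before to 50 after the start on GRCm38.p6, for 31 of the 36 genes, 35 windows in all. The palindrome TGACGTCA, the full cyclic AMP response element bound by CREB-family factors, reads the same on both strands and lies in the window of 5 of these 31 genes (16.1%), Scg2, Chgb, Pcsk1, Slc18a2 and Syn1, against 2.03% of 27025 genes with a window (1.79% of 32851 windows). The windows of these genes also differ from others in composition: the GC box GGGCGG, in either orientation, was in those of 24 of the 31 genes (77.4%) against 38.2% of all genes. Each TGACGTCA is shown with its flanks on the gene's strand, the element in capitals, except that of Slc18a2, which lies 4 bases before the start and reaches past it.
Scg2: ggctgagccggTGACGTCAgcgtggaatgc
Chgb: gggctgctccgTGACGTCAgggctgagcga
Pcsk1: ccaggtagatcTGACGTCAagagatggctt
Syn1: caaaggctgacTGACGTCActcactagccc
The stretches are chr1:79440076-79440105 (minus strand), chr2:132781559-132781588 (plus), chr13:75089768-75089797 (plus) and chrX:20921059-20921088 (minus), and the elements begin 68, 72, 78 and 159 bases before the RefSeq starts. GENCODE M21 begins both Scg2 and Chgb further upstream, so that their elements lie within the GENCODE gene bounds. The flanks differ between the genes, and only the 8 capitals are common to all 4.

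The genes that carry the element did not move together. Their log2 fold changes were 0.09 for Scg2, 0.44 for Chgb, 0.33 for Slc18a2 and -0.57 for Syn1, and Pcsk1 was not tested. The shorter core TGACG, in either orientation, was in the windows of 15 of the 31 genes (48.4%) against 23.05% of all genes, a count that includes the full elements. The letters TCAGCACC and GGACAGC, which stand for the left and right parts of an RE1 element, were each found in 3 of the 31 genes (9.68%), against 1.85% and 7.59% of all genes. TCAGCACC was in Scg2, Unc13a and Syn1. A match is a stretch of letters and not a measured binding site.

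Finally, the 7-letter strings TCACTGC and GCAATTT, picked in an earlier scan of the fold changes of these same libraries, were looked up in the annotated 3′ UTRs. TCACTGC was in 5 of 34 genes with such a UTR (14.7%), against 16.7% of 11982 tested genes, and GCAATTT in 3 (8.80%), against 9.23%. These shares lie near those of all genes, and which of the 34 genes carry the strings is not reported here.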

How the data were processed

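Per the labels' protocols, 5 stranded libraries were made from N2a total RNA after depletion of ribosomal RNA. Per the submitters' processing notes, the authors worked on GRCm38 with edgeR (version not given), STAR 2.5.2b and featureCounts 1.5.1. Which annotation and strand setting they chose is not given in the sources used here, so overlapping and antisense genes may share reads. The deposited values are of no stated unit and behave as RPKM. Values under 1 are intact, and the 12129 to 12449 values of 1 or more per library lost their decimal point.

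The decimal point was placed where value, exonic length (GENCODE M21, which holds 54809 of the 54838 identifiers) and counted reads give whole reads within 1e-06, as 98.5% to 98.6% of intact values did. The choice among possible readings used no group labels. It favoured close libraries and penalized each decimal position above the lowest that gave whole reads. Of 27255 genes above 0, 26642 had the annotated length and 575 a solved one (552 on chromosomes 17, 18 and 19), 38 had none, and 114 were left out at odds under 20. Among the tested members, Scg5, Vgf, Stx1a, Cplx1, Syt4, Syn2 and Snap91 each had a reading 1 position above the lowest, and Slc18a2 had a solved length. The settings were adjusted after seeing library totals and a few genes, Ewsr1 among them. Recovered reads differed from the total by 0.438% in siEwsr1 replicate 1 and by -0.0275% to -0.0170% in the other libraries. A sum above the total means that some readings in siEwsr1 replicate 1 are too high. That sum includes the genes left out for low odds, whose readings came to 0.602% of the counted reads there. Tested on simulated data for siEwsr1 against siCtrl (2359 genes), 570 of 572 unchanged genes were kept and read correctly, 589 of 591 changed 1.5-fold, 559 of 596 changed 2-fold and 117 of 600 changed 4-fold, of which 119 were kept. Large changes are therefore often left out here.

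limma 3.58.1 (R 4.3.3) was fitted to log2(RPKM + 0.1) after trimmed-mean scaling (30% of ratios and 5% of levels trimmed), for genes that reached 10 reads, scaled to the median library, in 2 or more libraries, with a variance trend on the level and robust moderation. Fold changes are on that scale, which understates low genes. One read was worth 0.0469 to 0.0665 CPM, and precision is limited by 2 siCtrl libraries. On simulated data for the same comparison (14569 genes), the fit called 0 of 49 genes changed 1.2-fold, 6 of 48 changed 1.5-fold, 29 of 49 changed 2-fold, 44 of 48 changed 4-fold and 2 unchanged genes. Alternatives were other pseudocounts, filters, scalings, variance models, a replicate block and leaving out each library. All 36 genes are accounted for. Values per library are given for called genes and the 10 largest changes, and for others where a group is described. The genes and lists were chosen with earlier results of these data known. Python 3.11.15 was used for the restoration. A few marker and list genes are not reported here by name.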

Additional observations from a re-analysis of the deposited data

How the results depend on the processing

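With 2 siCtrl libraries, a left-out library leaves the siCtrl or siEwsr1 spread resting on few values, and a lone siCtrl library is assumed to vary like the siEwsr1 libraries. Cplx2 kept its direction in all 14 alternatives (-0.99 to -0.78) and its call in 10, with adjusted p from 0.00256 to 0.314 (limma). Chgb stayed higher in all 14 (0.40 to 0.50) and was called in 3, with adjusted p from 0.00996 to 0.471, and Napb likewise in 3 (0.38 to 0.47, adjusted p 0.0253 to 0.475). Leaving out a library gave 0 to 1959 called genes in place of 260, 0 to 3 members higher and 0 to 2 lower. The Ewsr1 value ran from -0.97 to -0.94 and lost its call without either siCtrl library and without siEwsr1 replicate 1. Without a filter on low reads, 3 of 23195 genes and 0 members were called, and Ewsr1 stood at -0.96 (adjusted p = 0.0535, limma). With the lowest decimal position and annotated lengths only, 115 of 12505 genes were called, and Ewsr1 was not among the genes tested. The variance trend on reads called 786 genes and voom 824, with 2 members higher in each. The cause of these differences was not tested.

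The replicate block called 349 of 14897 genes (2.34%), 179 of them lower. Among the 33 tested members it called 2 lower, Cplx2 and Pcsk1n (-0.70, adjusted p = 0.0498, limma). No siCtrl library shares the number of siEwsr1 replicate 3, so the block term takes up that library. The block fold changes therefore match those found without siEwsr1 replicate 3. For the size of a change these 2 settings are not separate alternatives. Whether the replicate numbers pair these libraries is not known. The difference between replicates 1 and 2 in siCtrl correlated at -0.0654 with that in siEwsr1 across 14897 genes. This is a single contrast per group without replicate 3, so it cannot decide the question. Some changes near 0 turned sign. With the replicate block the values were -0.046 for Rab3a, 0.019 for Snap25, -0.027 for Syp, 0.0038 for Syt1, 0.034 for Syt4, -0.022 for Vamp1 and -0.064 for Vgf, and with library totals -0.0039 for Scg3. When single libraries were left out, the values ran from -0.13 to 0.11 for Cadps, -0.046 to 0.37 for Rab3a, -0.032 to 0.068 for Scg3, -0.089 to 0.019 for Snap25, -0.14 to 0.13 for Sv2a, -0.096 to 0.020 for Syn2, -0.049 to 0.12 for Syp, -0.16 to 0.042 for Syt1, -0.18 to 0.039 for Syt4, -0.022 to 0.12 for Vamp1 and -0.064 to 0.24 for Vgf. The planned count-model tests, the edgeR quasi-likelihood test and DESeq2, were not run, since no deposited column holds counts, and voom on the recovered reads was the one fit that models reads directly.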
